A study of Mus musculus with 16 samples.

Results

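The genes that carry out mitosis were followed through the knockdown of the long noncoding RNA *RUS* in differentiating neural stem cells (NSCs) of the mouse cortex. The group holds 58 genes for mitotic entry, chromosome condensation, the kinetochore, the spindle and cytokinesis, each found by its symbol in the deposited tables, out of 55365 gene rows. The rule that picks them is their names and uses no expression value, but the list was drawn up with earlier results of these data known. All 58 passed the filter on low values in every comparison. The NSCs came from pooled cortices of C57BL/6 embryos of both sexes at E15-16 and were grown with bFGF until day 5, when differentiation was started. They had been transduced with a lentivirus for a scrambled shRNA (shRNACON) or for a single shRNA against *RUS* (shRNARUS), so that the control cells carry a virus too. Poly(A) RNA was sequenced on days 5 and 7 after seeding, with 4 libraries for each shRNA and day and 16 libraries in all. The labels do not say whether the 4 libraries of a group came from separate cultures, and the p-values measure the spread between them.

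A dividing cell passes into mitosis when cyclin-dependent kinase 1 and its cyclins become active. Condensin then compacts the chromosomes, kinetochores built on the centromeres bind spindle microtubules, and a checkpoint holds back anaphase until each chromosome is attached. Motor proteins and the central spindle then complete the division, and the anaphase-promoting complex (APC/C) destroys the cyclins. Most of these genes are transcribed in waves in G2 phase, so that their RNA marks cycling cells, and in the embryonic cortex they are a hallmark of neural progenitors.

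Levels are scaled TPM, the deposited transcript abundances divided by a library factor, and calls were made with limma where the adjusted p (Benjamini-Hochberg, over all genes tested) was below 0.05. TPM keeps no record of the read number, so the depth is unknown. Between 25615 and 29126 genes were above 0 in a library. *RUS*, listed as *Gm20754*, was near the limit of what these libraries show. Its TPM were 0.24, 0.11, 0.18 and 0.16 in shRNACON and 0.050, 0, 0.12 and 0.32 in shRNARUS on day 5, and 0.70, 0.72, 0.26 and 0.54 against 0.54, 0.38, 0 and 0.040 on day 7. Replicate 4 of the libraries labelled shRNARUS on day 5 thus held the most *RUS* of that day, against its label. On day 7, replicates 1 and 2 of shRNARUS lay above replicate 3 of shRNACON, so the groups overlapped there too. The day 5 library had a summed level of the 58 genes of 1279 scaled TPM. This lay among those of its group (1179 to 1293) and not of shRNACON (2251 to 2316). These are the genes under study, so the sum does not settle the label. The numbers of the 58 genes called are given with and without this library where they differ. Some reads cannot be placed with certainty. Exons of 15 of the 58 genes overlap a gene on the other strand, among them *Cdc25b*, *Cdc20*, *Ube2c*, *Kif22*, *Nusap1*, *Prc1* and *Kif20a*, and whether the counting used the strand is not given in the sources used here. Exons of *Foxm1*, *Top2a* and *Ncapd2* overlap another gene on the same strand, and 9 of the 58, including *Mybl2*, *Mad2l1* and *Kifc1*, hold a stretch nearly identical to another transcript. The 7 NSC markers were present in each group. Their summed level ran from 12460 to 14603 in shRNACON and from 17732 to 21226 in shRNARUS on day 5, and from 6798 to 7051 and from 7021 to 7679 on day 7. Single markers differed in direction. Their median log2 fold change in shRNARUS over shRNACON was −0.010 on day 5 and −0.034 on day 7. The range was from −0.87 for *Nes* to 0.55 for *Vim* on day 5, and from −1.19 for *Nes* to 0.20 for *Pax6* on day 7.

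All 58 mitosis genes were lower in shRNARUS than in shRNACON on day 5, and all 58 on day 7. On day 5, 17.9% of the 22581 genes tested were called lower and 14.8% higher. The median log2 fold change of the 58 was −0.90, against −0.061 for all genes, and they ran from −1.44 for *Birc5* to −0.47 for *Cenpa*. Of the 58, 16 fell at least 2-fold, as did 2.58% of all genes. On day 7, 25.8% of the 24606 genes tested were called lower and 23.4% higher. The median of the 58 was then −1.26, against −0.029 for all genes, with a range from −1.84 for *Ccnb2* to −0.55 for *Mybl2*. At least 2-fold decreases were called for 49 of the 58 and for 5.95% of all genes. The highest adjusted p among the 58 was 0.0139 on day 5 and 0.000736 on day 7. The day 5 value was that of *Spc24*, whose call was lost with replicate number as a block (adjusted p = 0.064). In libraries of whole cultures, fewer dividing cells and less of these RNAs per cell cannot be told apart.

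The libraries of the groups were apart as well. In 57 of the 58 genes every shRNARUS library of day 5 lay below every shRNACON library, which was so for 18.7% of all genes, and the exception was *Spc24*. On day 7 this held for all 58, beside 24.7% of all genes. The summed level of the 58 genes was 2285 ± 33.2 scaled TPM (SD, n = 4) in shRNACON and 1240 ± 54.9 in shRNARUS on day 5, and 2172 ± 31.9 and 901 ± 42.5 on day 7. Thus 54.3% of the control sum was left on day 5 and 41.5% on day 7. For single genes the share left ranged from 36.9% to 72.0% on day 5, with a median of 53.3%, and from 27.6% to 67.7% on day 7, with a median of 41.2%. Without replicate 4 of shRNARUS, all 58 were called lower on day 5 as well, with a median of −0.93.

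**Figure D1:**
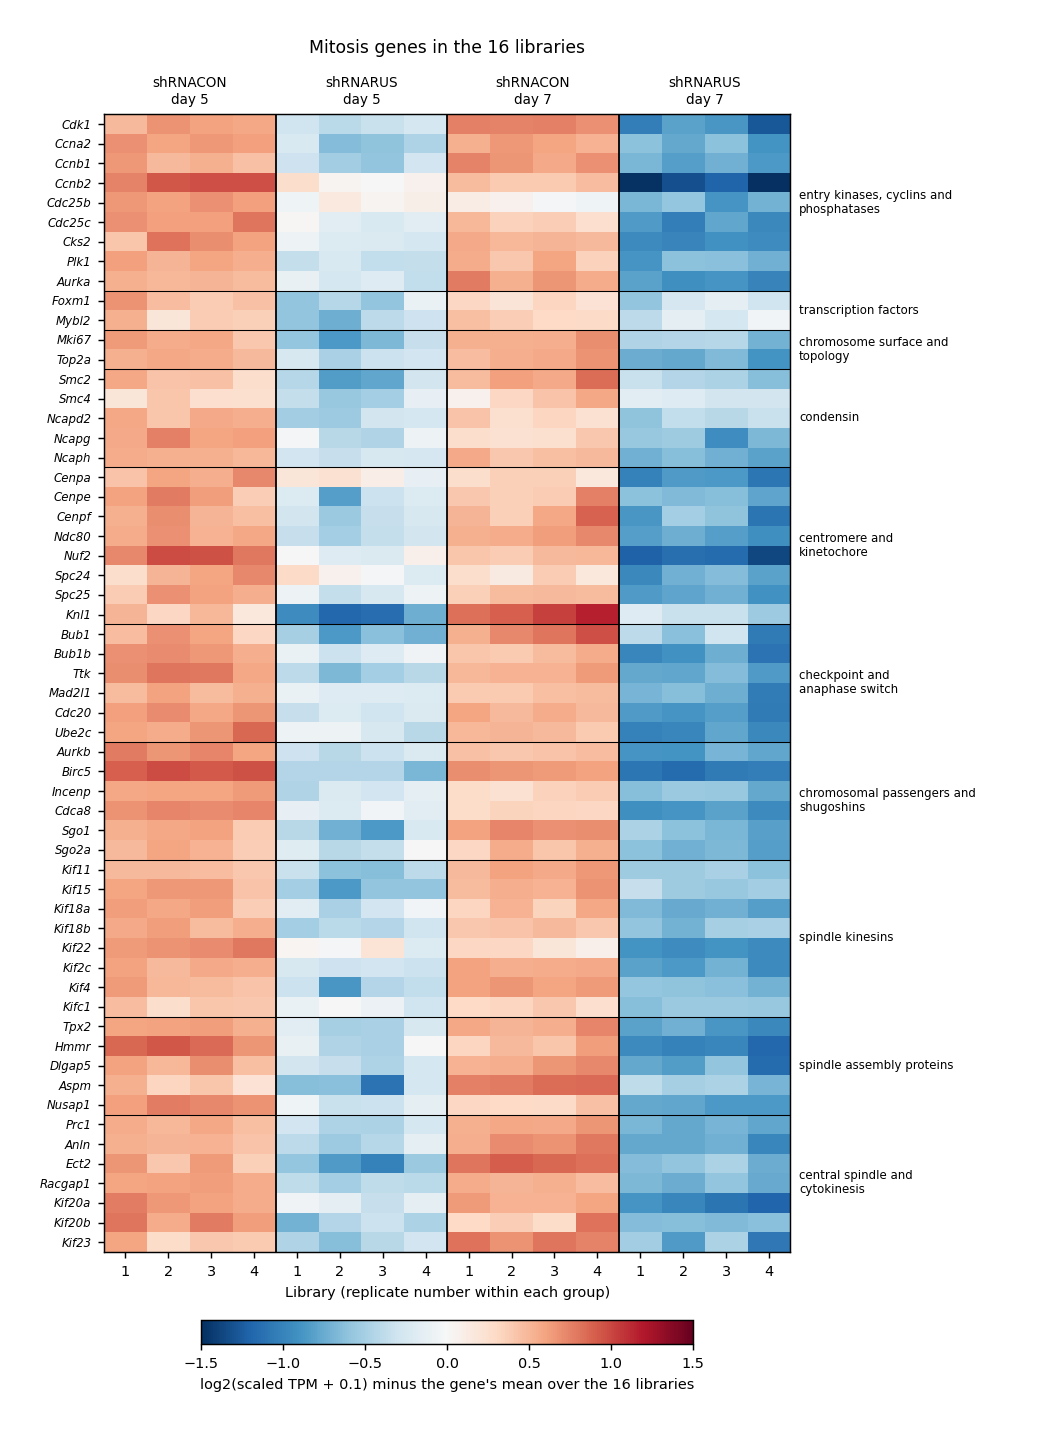
Level of each of the 58 mitosis genes (rows, grouped by role) in the 16 libraries (columns, replicates 1 to 4 of each group), as log2(scaled TPM + 0.1) minus the gene's mean over the 16 libraries. Both control blocks are mostly above the row mean and both shRNARUS blocks mostly below it, with the lowest values mostly in shRNARUS on day 7.

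Promoters of these genes share sequence motifs that the choice of the genes did not use. Mitotic promoters are known for a cell cycle homology region (CHR), where the MuvB complexes bind, and for CCAAT boxes, which bind NF-Y. Promoters of RefSeq start sites (GRCm38.p6, 250 bases before to 50 after the start) were found for 48 of the 58 genes, 51 promoters in all, and were searched on both strands. A CHR core, TTTGAA or TTCGAA, was in 76.5% of the 51 promoters, against 19.2% of all 32851 promoters of the same length. CCAAT was in 74.5%, against 37.4%. Both stood together in 64.7%, against 7.52%. An E2F-like word (TTCCCGC, or instead TTCGCGC, or the word TTTGGCG) was in 13.7%, against 7.30%. Each motif was counted separately, matches of different motifs can share an end base, and a match does not show that a factor binds. The promoters of 6 genes are printed from 200 bases before to 30 after the start. *Birc5* and *Ccnb2* had the largest decreases on day 5 and on day 7, and *Mybl2* the smallest on day 7. *Cdk1*, *Cdc20* and *Mki67* were chosen because they hold both motifs. The promoter of *Cenpa*, which had the smallest decrease on day 5, is not printed and holds both motifs as well. Motifs are in capitals, and CCAAT on the other strand reads ATTGG.
Ccnb2, chr9:70421525-70421754, minus strand: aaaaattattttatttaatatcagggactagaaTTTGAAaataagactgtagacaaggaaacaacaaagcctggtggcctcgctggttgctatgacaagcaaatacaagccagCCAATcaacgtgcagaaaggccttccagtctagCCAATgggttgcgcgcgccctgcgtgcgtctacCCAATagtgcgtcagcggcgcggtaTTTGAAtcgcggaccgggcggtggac
Cdk1, chr10:69352883-69353112, minus strand: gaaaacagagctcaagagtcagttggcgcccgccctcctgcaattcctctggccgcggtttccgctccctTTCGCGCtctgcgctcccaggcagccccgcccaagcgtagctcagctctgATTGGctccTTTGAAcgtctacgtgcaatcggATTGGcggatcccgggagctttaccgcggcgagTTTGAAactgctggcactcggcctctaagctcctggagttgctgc
Cdc20, chr4:118437314-118437543, minus strand: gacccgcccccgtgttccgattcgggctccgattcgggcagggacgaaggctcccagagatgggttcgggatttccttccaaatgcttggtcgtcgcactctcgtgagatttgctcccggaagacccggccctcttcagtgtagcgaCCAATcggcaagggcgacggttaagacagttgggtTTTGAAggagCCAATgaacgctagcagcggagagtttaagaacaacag
Mki67, chr7:135716350-135716579, minus strand: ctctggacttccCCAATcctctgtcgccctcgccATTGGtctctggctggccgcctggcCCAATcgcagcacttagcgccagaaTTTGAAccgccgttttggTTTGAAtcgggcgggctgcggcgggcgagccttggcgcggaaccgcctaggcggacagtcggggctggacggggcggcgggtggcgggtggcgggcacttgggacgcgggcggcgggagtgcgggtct
Birc5, chr11:117849037-117849266, plus strand: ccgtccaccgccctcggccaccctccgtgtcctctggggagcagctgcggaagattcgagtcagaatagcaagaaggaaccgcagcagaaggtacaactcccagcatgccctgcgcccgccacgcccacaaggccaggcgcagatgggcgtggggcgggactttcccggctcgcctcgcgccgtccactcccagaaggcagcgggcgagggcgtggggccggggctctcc
Mybl2, chr2:163054435-163054664, plus strand: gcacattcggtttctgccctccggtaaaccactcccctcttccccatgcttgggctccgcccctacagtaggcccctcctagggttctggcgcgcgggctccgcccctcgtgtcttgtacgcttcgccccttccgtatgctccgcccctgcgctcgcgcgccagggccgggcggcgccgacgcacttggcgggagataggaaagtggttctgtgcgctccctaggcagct

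*Ccnb2*, *Cdk1*, *Cdc20* and *Mki67* hold CHR cores and CCAAT boxes, whereas none of the words searched lies in the windows of *Birc5* and *Mybl2*. The choice of the printed genes sets this contrast in part. Only the exact words were searched, so other forms of the sites could be missed. *Birc5* had the largest decrease of the 58 on day 5 and *Mybl2* the smallest on day 7. The median was −0.91 on day 5 and −1.30 on day 7 over the 37 genes with a CHR core, and −0.87 and −1.19 over the 11 matched genes without one. On day 7 the genes with a core ran from −1.84 to −0.72 and those without from −1.72 to −0.55, and whether the sets differ was not tested.

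The kinases, cyclins and phosphatases of mitotic entry were all lower on both days, 1 of 9 at least 2-fold on day 5 and 8 on day 7. Their median went from −0.82 on day 5 to −1.43 on day 7. *Ccnb2* encodes cyclin B2, a partner of Cdk1, on chromosome 9 at 70407692 to 70421547 (GRCm38, minus strand). It was at 38.8, 44.4, 45.2 and 45.1 scaled TPM in shRNACON and 27.8, 23.7, 23.2 and 24.1 in shRNARUS on day 5 (log2 fold change −0.81, SE 0.077, adjusted p = 9.36e-05). On day 7 it was at 32.1, 30.4, 30.4 and 32.0 in shRNACON and 8.21, 9.22, 9.97 and 7.08 in shRNARUS (−1.84, SE 0.097, adjusted p = 6.33e-07). Values of the 4 replicates are given in order, with shRNACON first. The 4 groups did not overlap, and the 4 shRNARUS libraries of day 7 were below all 12 others. *Cdk1*, the kinase itself, had the highest level of these 9 genes. Its levels were 118, 135, 129 and 126 against 69.0, 64.1, 66.9 and 70.3 on day 5 (−0.91, SE 0.056, adjusted p = 1.59e-05) and 142, 142, 143 and 136 against 41.2, 48.5, 46.3 and 34.9 on day 7 (−1.72, SE 0.092, adjusted p = 6.95e-07). Its 4 controls of day 7 lay above those of day 5, a difference that was not called, and its knockdown libraries of day 7 were the lowest of the 16. *Aurka*, the kinase of the spindle poles, was at 30.7, 29.9, 30.1 and 29.3 against 19.6, 17.6, 18.5 and 16.3 on day 5 and at 36.2, 30.7, 33.6 and 31.2 against 12.1, 11.1, 11.4 and 10.5 on day 7, with log2 fold changes of −0.74 (SE 0.064, adjusted p = 6.15e-05) and −1.52 (SE 0.067, adjusted p = 2.68e-07). *Cdc25b*, a phosphatase that activates Cdk1, had the smallest change of the 9 on both days, −0.58 (SE 0.065, adjusted p = 0.000201) and −0.73 (SE 0.077, adjusted p = 4.06e-05). It was also the gene of the 58 that fell most between the days in the controls, from 17.6 ± 0.462 to 11.5 ± 0.635 scaled TPM (SD, n = 4), a level that overlapped the 11.7 ± 0.727 of shRNARUS on day 5.

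Both transcription factors of the group were lower on both days, and their median on day 7, −0.56, was the smallest decrease of any role, although *Smc4* of condensin fell less than *Foxm1*. *Foxm1*, an activator of G2/M genes, was at 29.0, 25.1, 23.6 and 24.7 scaled TPM in shRNACON and 12.04, 13.4, 11.98 and 17.0 in shRNARUS on day 5 (−0.91, SE 0.12, adjusted p = 0.000426). On day 7 it was at 22.6, 20.7, 22.8 and 21.1 against 11.95, 15.2, 16.4 and 14.7 (−0.57, SE 0.094, adjusted p = 0.00071). Part of its reads is uncertain, since exons of *Gm44596* and *Tex52* overlap it on the same strand. *Mybl2*, which encodes B-Myb, the partner of MuvB in activation, was at 9.89, 7.73, 8.90 and 8.70 against 4.46, 4.03, 5.15 and 5.43 on day 5 (−0.87, SE 0.11, adjusted p = 0.000482) and at 9.33, 8.83, 8.35 and 8.30 against 5.17, 6.13, 5.66 and 6.61 on day 7 (−0.55, SE 0.086, adjusted p = 0.000542). In both genes shRNARUS kept a larger share of control on day 7 than on day 5, 66.9% against 53.2% for *Foxm1* and 67.7% against 54.1% for *Mybl2*, a difference that was not called in the interaction test but was under other settings given with that test.

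*Mki67* and *Top2a*, both used as proliferation markers, were lower on both days and at least 2-fold lower on day 7. Ki-67, the product of *Mki67*, coats mitotic chromosomes, and topoisomerase IIα, the product of *Top2a*, separates sister DNA strands. *Mki67* was at 43.9, 41.4, 42.1 and 37.5 scaled TPM in shRNACON and 18.9, 15.4, 17.6 and 22.2 in shRNARUS on day 5 (−1.16, SE 0.10, adjusted p = 7.1e-05), and at 41.0, 40.7, 41.3 and 45.6 against 20.5, 20.7, 20.9 and 17.3 on day 7 (−1.07, SE 0.069, adjusted p = 1.98e-06). The share left was 45.0% and 47.1%. *Top2a* had the highest level of all 58 genes in both control groups and in both shRNARUS groups. It was at 167, 173, 170.0 and 161 against 97.4, 82.4, 92.5 and 94.9 on day 5 (−0.87, SE 0.059, adjusted p = 2.05e-05) and at 159, 168, 171 and 184 against 69.0, 67.6, 72.5 and 61.9 on day 7 (−1.32, SE 0.057, adjusted p = 2.54e-07).

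The 5 genes of condensin, the ring complex that compacts chromosomes, had nearly the same median decrease on both days. It was −0.87 on day 5 and −0.95 on day 7 on the log2 scale, and 2 of the 5 fell at least 2-fold on day 7. *Ncaph*, the kleisin that closes the ring, was at 29.4, 29.1, 29.1 and 28.4 in shRNACON and 16.5, 15.7, 17.0 and 16.8 in shRNARUS on day 5 (−0.81, SE 0.050, adjusted p = 1.6e-05), and at 29.7, 26.5, 27.4 and 28.1 against 12.1, 12.8, 12.1 and 11.4 on day 7 (−1.19, SE 0.053, adjusted p = 2.8e-07). Its libraries stood close together within each group, and the groups of the 2 shRNAs did not overlap. *Smc4*, one of the ATPase arms, was at 62.3, 73.6, 65.7 and 65.0 against 42.9, 37.0, 38.7 and 50.6 on day 5 (−0.66, SE 0.099, adjusted p = 0.000996) and at 57.8, 68.1, 74.1 and 82.5 against 49.0, 48.0, 45.6 and 45.6 on day 7 (−0.56, SE 0.092, adjusted p = 0.000736). Its day 7 controls were widely spread, and their lowest value stood above all shRNARUS values of either day. *Ncapd2*, a HEAT subunit, changed by −0.92 (SE 0.080, adjusted p = 6.01e-05) on day 5 and by −0.72 (SE 0.070, adjusted p = 2.46e-05) on day 7, with 52.8% and 60.2% of control left. Exons of 2 small noncoding genes overlap it on the same strand, *Gm28967* and *Scarna10*, so that part of its reads is uncertain.

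**Figure D2:**
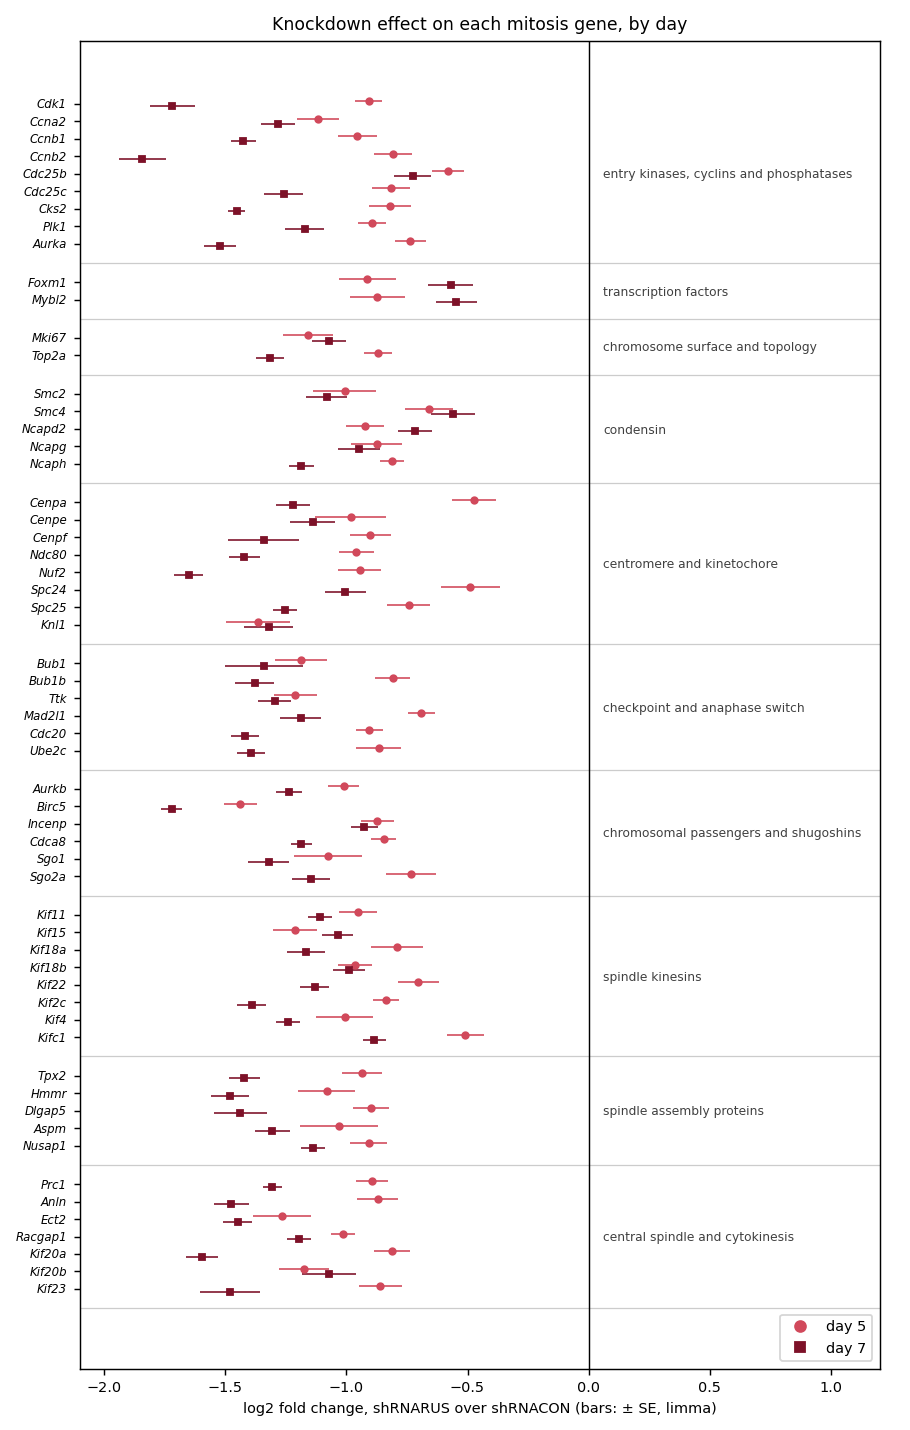
Log2 fold change of each mitosis gene in shRNARUS over shRNACON on day 5 (circles) and day 7 (squares), 4 against 4 libraries, with bars of ± 1 SE from limma and genes grouped by role. All points lie left of 0, from −0.47 to −1.44 on day 5 and from −0.55 to −1.84 on day 7.

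The kinetochore, the plate that ties a centromere to the spindle, held both weak and strong responders on day 5. Its 8 genes ran from −1.36 for *Knl1* to −0.47 for *Cenpa* on day 5, with a median of −0.92, and all 8 fell at least 2-fold on day 7, with a median of −1.29. *Cenpa*, the histone H3 variant that marks the centromere, was at 64.2, 72.1, 69.8 and 79.1 in shRNACON and 54.2, 56.1, 51.4 and 43.8 in shRNARUS on day 5 (−0.47, SE 0.092, adjusted p = 0.00395). On day 7 it was at 57.4, 61.4, 61.3 and 53.2 against 23.6, 26.6, 26.2 and 22.6 (−1.22, SE 0.070, adjusted p = 1.05e-06). The gap between the groups was thus narrow on day 5 and wide on day 7. *Nuf2* encodes a subunit of the microtubule-binding Ndc80 complex. It stood at 44.2, 52.9, 52.0 and 46.4 against 26.8, 23.4, 23.0 and 28.2 on day 5 (−0.94, SE 0.088, adjusted p = 8.43e-05) and at 35.9, 35.0, 37.5 and 37.9 against 11.5, 12.2, 11.9 and 10.3 on day 7 (−1.65, SE 0.059, adjusted p = 1.22e-07). *Spc24*, another subunit of that complex, was at 23.0, 27.2, 28.8 and 31.6 against 23.4, 19.9, 18.8 and 16.6 on day 5 (−0.49, SE 0.12, adjusted p = 0.0139), where replicate 1 of shRNARUS exceeded replicate 1 of shRNACON. Its day 5 call was lost with replicate number as a block (adjusted p = 0.064). On day 7 its values were 23.0, 21.0, 25.02 and 21.4 against 9.75, 11.6, 12.2 and 10.9 (−1.005, SE 0.084, adjusted p = 9.61e-06), with no overlap. *Knl1*, the scaffold that recruits the checkpoint proteins, had the lowest control level of the 58 on day 5. It was at 5.57, 4.87, 5.55 and 4.38 against 1.98, 1.67, 1.71 and 2.31 on day 5 (−1.36, SE 0.13, adjusted p = 9.69e-05) and at 6.97, 7.35, 8.07 and 8.90 against 3.39, 3.08, 3.07 and 2.65 on day 7 (−1.32, SE 0.10, adjusted p = 5.55e-06). Both groups were higher on day 7 than on day 5, each without overlap.

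The 6 genes of the spindle checkpoint and the switch to anaphase had a median of −0.89 on day 5 and −1.36 on day 7, and each fell at least 2-fold on day 7. *Mad2l1* encodes Mad2, which holds back the APC/C while kinetochores are free. It was at 33.4, 36.6, 33.4 and 34.8 in shRNACON and 22.5, 21.0, 21.0 and 20.9 in shRNARUS on day 5 (−0.69, SE 0.055, adjusted p = 4.24e-05), and at 31.5, 31.6, 32.8 and 33.3 against 14.8, 15.4, 14.4 and 11.6 on day 7 (−1.19, SE 0.083, adjusted p = 3.22e-06). *Cdc20*, the activator of the APC/C that Mad2 binds, was at 66.0, 70.6, 64.5 and 68.0 against 33.8, 37.4, 35.0 and 37.2 on day 5 (−0.91, SE 0.055, adjusted p = 1.59e-05). Its day 7 values were 64.8, 60.4, 63.7 and 60.3 against 23.9, 23.3, 24.4 and 20.7 (−1.42, SE 0.058, adjusted p = 1.92e-07). The brake and its target were thus both lower, *Cdc20* at 37.0% and *Mad2l1* at 43.5% of control on day 7. *Ube2c*, the ubiquitin-conjugating enzyme that serves the APC/C, was at 78.1, 75.9, 81.7 and 93.7 against 48.9, 48.9, 43.8 and 38.8 on day 5 (−0.87, SE 0.094, adjusted p = 0.00017) and at 73.2, 73.5, 72.5 and 67.8 against 25.6, 26.2, 30.01 and 26.4 on day 7 (−1.39, SE 0.058, adjusted p = 2.14e-07).

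The chromosomal passenger complex, which corrects wrong attachments and then moves to the midzone, held the gene with the largest decrease on day 5. *Birc5* encodes its subunit survivin, which is also known as an inhibitor of apoptosis (chromosome 11 at 117849251 to 117855743, plus strand). It was at 59.9, 63.3, 61.2 and 62.8 scaled TPM in shRNACON and 23.7, 23.8, 23.7 and 20.0 in shRNARUS on day 5 (−1.44, SE 0.067, adjusted p = 7.44e-06), and at 52.3, 50.9, 50.3 and 48.8 against 15.1, 14.4, 15.4 and 15.7 on day 7 (−1.72, SE 0.043, adjusted p = 3.69e-08). Its shRNARUS libraries were far below all 8 controls, and 36.9% of the control mean was left on day 5 and 29.9% on day 7. *Incenp*, the scaffold of the same complex, was at 54.3, 54.6, 54.7 and 56.6 against 26.6, 31.3, 29.7 and 32.7 on day 5 (−0.87, SE 0.068, adjusted p = 3.91e-05) and at 44.0, 42.5, 46.2 and 47.1 against 23.3, 24.7, 24.4 and 21.3 on day 7 (−0.93, SE 0.057, adjusted p = 1.51e-06). It kept 54.6% and 52.1% of control. With the shugoshins *Sgo1* and *Sgo2a*, protectors of centromeric cohesion, the 6 genes of this role had medians of −0.94 and −1.21.

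The 8 spindle kinesins, motors that push, slide or take apart microtubules, had medians of −0.89 on day 5 and −1.12 on day 7. *Kif22*, a chromokinesin that moves chromosome arms, was at 42.8, 43.9, 44.7 and 47.3 against 28.0, 26.8, 31.5 and 23.6 on day 5 (−0.70, SE 0.085, adjusted p = 0.000309) and at 33.9, 34.1, 31.1 and 29.0 against 14.7, 14.2, 14.7 and 14.05 on day 7 (−1.13, SE 0.060, adjusted p = 6.58e-07). *Kif2c*, which takes apart microtubule ends at the centromere, was at 22.5, 20.7, 22.05 and 21.7 against 12.5, 11.9, 12.2 and 11.9 on day 5 (−0.84, SE 0.054, adjusted p = 1.76e-05). Its day 7 values were 22.6, 21.6, 21.9 and 22.1 against 8.44, 8.13, 9.01 and 7.58 (−1.39, SE 0.059, adjusted p = 2.36e-07). The controls of *Kif2c* overlapped between the days, while its knockdown libraries stepped down. *Kifc1*, a minus-end motor, changed least of the 8 on both days, −0.51 (SE 0.077, adjusted p = 0.0011) and −0.88 (SE 0.049, adjusted p = 8.01e-07), and its transcript is nearly identical to that of *Kifc5b* over 2312 bases, so that reads could be split between them. *Kif18b*, which trims astral microtubules, held 50.9% and 49.6% of control, with −0.96 (SE 0.071, adjusted p = 3.09e-05) and −0.99 (SE 0.065, adjusted p = 2.26e-06).

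The 5 spindle assembly proteins all fell at least 2-fold on day 7, with a median of −1.42 after −0.94 on day 5. *Tpx2*, the activator of Aurora A on the spindle, was at 48.5, 48.9, 49.8 and 46.6 in shRNACON and 28.7, 22.7, 22.9 and 27.3 in shRNARUS on day 5 (−0.94, SE 0.081, adjusted p = 6.15e-05), and at 48.1, 45.9, 46.9 and 53.3 against 18.4, 19.5, 17.5 and 16.3 on day 7 (−1.42, SE 0.065, adjusted p = 3.1e-07). *Hmmr*, a spindle-pole protein also known as a hyaluronan receptor, was at 20.8, 21.9, 20.7 and 18.2 against 10.6, 8.36, 8.18 and 11.5 on day 5 (−1.08, SE 0.12, adjusted p = 0.000181) and at 14.3, 16.1, 15.3 and 17.7 against 5.88, 5.64, 5.75 and 5.00 on day 7 (−1.48, SE 0.079, adjusted p = 7.1e-07). *Nusap1*, which bundles microtubules near chromosomes, changed by −0.91 (SE 0.075, adjusted p = 5.02e-05) and −1.14 (SE 0.050, adjusted p = 2.66e-07). *Aspm*, a spindle-pole protein whose loss causes microcephaly, was at 10.8 ± 1.05 and 5.35 ± 1.27 on day 5 and at 14.6 ± 0.424 and 5.83 ± 0.534 on day 7 (SD, n = 4). *Aspm* and other genes that the selection rule does not name were chosen after their values were seen.

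The 7 genes of the central spindle and cytokinesis all fell at least 2-fold on day 7, with a median of −1.45 after −0.89 on day 5. *Kif20a*, a motor of the cleavage furrow, was at 37.9, 35.1, 33.9 and 32.7 against 21.5, 20.2, 17.5 and 20.1 on day 5 (−0.81, SE 0.075, adjusted p = 7.92e-05) and at 34.8, 32.0, 32.0 and 33.6 against 11.99, 11.2, 10.4 and 9.68 on day 7 (−1.60, SE 0.068, adjusted p = 2.31e-07). *Kif20a* shares 979 bases with *Cdc23* on the other strand. *Prc1*, which cross-links the microtubules of the midzone, was at 71.0, 68.1, 72.0 and 66.0 against 39.4, 34.8, 34.6 and 40.2 on day 5 (−0.89, SE 0.065, adjusted p = 2.85e-05) and at 69.9, 71.8, 71.3 and 76.2 against 29.8, 28.3, 29.6 and 27.9 on day 7 (−1.30, SE 0.039, adjusted p = 5.38e-08). The controls of *Prc1* overlapped between the days and its knockdown libraries did not, a step that was lost with TPM as deposited (−0.038, adjusted p = 0.643). *Kif20b*, needed for the last cut of cell separation in cortical progenitors, was at 13.4, 11.3, 13.2 and 11.9 against 4.63, 5.62, 6.11 and 5.48 on day 5 (−1.17, SE 0.10, adjusted p = 5.94e-05) and at 9.40, 9.91, 9.26 and 13.5 against 4.81, 4.88, 4.80 and 4.92 on day 7 (−1.07, SE 0.11, adjusted p = 3.87e-05).

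**Figure D3:**
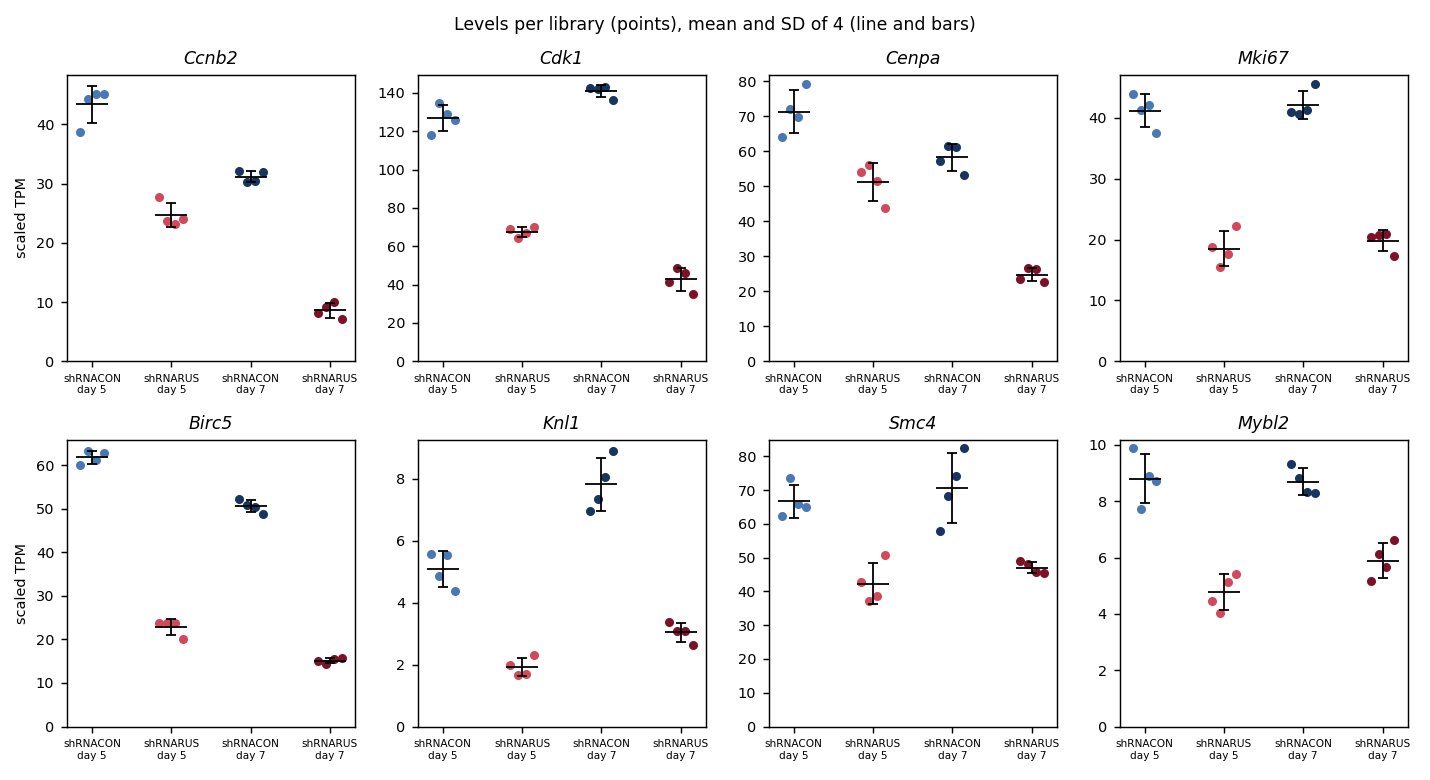
Scaled TPM of 8 mitosis genes in each of the 16 libraries (points), with the mean (line) and SD (bars) of the 4 libraries of each group. Knockdown libraries lie below the controls of the same day in each panel, and *Ccnb2*, *Cdk1*, *Cenpa* and *Birc5* step down again on day 7, whereas *Knl1* rises in both groups, in shRNARUS to a change of only 0.071 with the length trend removed.

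In the control cells the mitosis genes changed little between day 5 and day 7, in a direction that turned with the scaling. The sum on day 7 was 95.1% of that on day 5, whereas with TPM as deposited it ran from 2159 to 2306 on day 5 and from 2306 to 2379 on day 7. By the test, 15 of the 58 genes were lower on day 7, beside 21.6% of the 23789 genes tested, 4 were higher, beside 26.9%, and 39 were not called. Without the library labelled shRNARUS day 5 replicate 4, which enters the shared estimate of the spread, 18 were lower and 5 higher. The median log2 change was −0.076, against 0.067 for all genes. With TPM as deposited it became 0.075, against 0.20 for all genes, and so stayed below the median of all genes. *Cdc25b* fell most, −0.61 (SE 0.068, adjusted p = 2.12e-06), followed by *Kif22* with −0.48 (SE 0.074, adjusted p = 5.51e-05) and *Ccnb2* with −0.47 (SE 0.090, adjusted p = 0.000409). The 4 that rose were *Knl1* with 0.61 (SE 0.12, adjusted p = 0.000496), *Aspm* with 0.44 (SE 0.13, adjusted p = 0.0122), *Kif23*, a centralspindlin motor, with 0.35 (SE 0.11, adjusted p = 0.0189), and *Ect2*, the activator of RhoA at the furrow, with 0.33 (SE 0.099, adjusted p = 0.0113). *Aspm* fell to 0.076 (adjusted p = 0.538) with the length trend removed, and *Kif23* lost its call with 75th percentile scaling (adjusted p = 0.061) and without shRNACON day 5 replicate 2 (adjusted p = 0.0608). *Mki67* was at 41.2 ± 2.71 and 42.1 ± 2.34 scaled TPM (SD, n = 4), a difference within the spread between libraries. The days stand in separate tables, and the day and anything else that differed between them cannot be told apart.

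In the shRNARUS cells 42 of the 58 genes were lower on day 7 than on day 5, beside 25.8% of all genes, 2 were higher, beside 35%, and 14 were not called. The median log2 change was −0.44, against 0.131 for all genes, and the sum on day 7 was 72.7% of that on day 5. With TPM as deposited the median was −0.12, against 0.41 for all genes, and the sum ran from 1009 to 1187 TPM on day 5 and from 926 to 1036 on day 7, with an overlap. *Ccnb2* changed most, −1.52 (SE 0.090, adjusted p = 1.17e-09), then *Nuf2* with −1.13 (SE 0.077, adjusted p = 4.92e-09), *Cenpa* with −1.05 (SE 0.084, adjusted p = 2.84e-08), *Kif22* with −0.92 (SE 0.074, adjusted p = 3.05e-08) and *Kif20a* with −0.87 (SE 0.073, adjusted p = 5.34e-08). All 9 genes of mitotic entry were among the 42, but with TPM as deposited *Ccna2* turned to 0.087 (adjusted p = 0.398) and *Ccnb1* (−0.021, adjusted p = 0.845) and *Plk1* (−0.059, adjusted p = 0.52) lost their calls. *Ccna2* was also lost without replicate 1 of shRNARUS day 5 or without replicate 2 or 4 of shRNARUS day 7, with adjusted p of 0.0714, 0.0515 and 0.0809. The pair that rose was *Knl1* with 0.65 (SE 0.12, adjusted p = 0.000195) and *Mybl2* with 0.30 (SE 0.10, adjusted p = 0.0179). With the length trend removed *Knl1* changed by 0.071 (adjusted p = 0.527) and *Mybl2* by 0.23 (adjusted p = 0.0587). *Mybl2* also lost its call with quantile normalization (0.11, adjusted p = 0.372), with 75th percentile scaling (0.14, adjusted p = 0.258), without shRNARUS day 5 replicate 2 (adjusted p = 0.07) and without shRNARUS day 7 replicate 4 (adjusted p = 0.0599). Of the 42, 27 were not called between the days in the controls, 14 were lower there too and 1, *Kif23*, was higher. Its call in shRNARUS was lost without 5 single libraries, with adjusted p up to 0.156 without shRNARUS day 7 replicate 4, and with TPM as deposited it turned to 0.038. The group means ran in the order shRNACON day 5, shRNACON day 7, shRNARUS day 5, shRNARUS day 7 for 32 genes, and with the controls of the 2 days swapped for 15. In 7 others the days of both shRNAs were swapped and in 3 only those of shRNARUS, so that shRNARUS day 5 was lowest. In 1, *Cdc25b*, shRNARUS day 5 stood above shRNACON day 7. Without the library labelled shRNARUS day 5 replicate 4, 40 genes were lower and 5 higher in shRNARUS, the additions being *Aspm*, *Mki67* and *Smc4*.

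The comparisons of shRNAs, of days and of their interaction share libraries and are not independent of each other. The effect of the knockdown itself was larger on day 7 for 33 of the 58 genes, by the interaction of shRNA and day in the fit over all 16 libraries, beside 14.6% of all genes called in this direction. In the other direction 15.2% of all genes were called and none of the 58 by limma, with 1 of the 58, *Mybl2*, above 0 at an unadjusted p under 0.05. The median difference was −0.39 on the log2 scale, against 0.038 for all genes (−0.22 against 0.19 with TPM as deposited), and the estimate was below 0 for 50 genes and above 0 for 8. The 3 largest were those of *Ccnb2* with −1.05 (SE 0.13, adjusted p = 3.42e-05), *Cdk1* with −0.82 (SE 0.11, adjusted p = 7.79e-05) and *Aurka* with −0.80 (SE 0.092, adjusted p = 2.24e-05). *Kif20a* with −0.79 (SE 0.10, adjusted p = 6.4e-05), *Cenpa* with −0.76 (SE 0.12, adjusted p = 0.000256) and *Nuf2* with −0.72 (SE 0.11, adjusted p = 0.000207) came next. The smallest were those of *Kif18b*, −0.035 (SE 0.090, adjusted p = 0.809), *Knl1*, 0.037 (SE 0.17, adjusted p = 0.897), and *Incenp*, −0.065 (SE 0.088, adjusted p = 0.623). By role, the interaction was called for 7 of 9 entry genes, 5 of 8 kinetochore genes, 5 of 7 of cytokinesis, 4 of 6 checkpoint genes, 4 of 6 passengers and shugoshins, 4 of 8 kinesins, 2 of 5 spindle assembly proteins, 1 of 5 of condensin and 1 of 2 of the chromosome surface, but for neither transcription factor. Whether the roles differ from each other was not tested. *Foxm1* and *Mybl2* had the highest estimates of the 58, 0.33 (SE 0.16, adjusted p = 0.127) and 0.32 (SE 0.15, adjusted p = 0.115). Without the library labelled shRNARUS day 5 replicate 4 both were called higher, at 0.44 (adjusted p = 0.016) and 0.38 (adjusted p = 0.049). So were both with TPM as deposited, at 0.50 (adjusted p = 0.0475) and 0.48 (adjusted p = 0.0401), and *Foxm1* without shRNARUS day 7 replicate 1, at 0.42 (adjusted p = 0.0407). Without the first of these libraries 31 genes were called lower.

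The calls of the 58 genes between days moved with the scaling, while those within a day did not. With TPM as deposited, the median of all genes was 0.20 between the days in shRNACON, 0.41 in shRNARUS and 0.19 for the interaction. Of the 58, 7 were then lower and 15 higher between the days in shRNACON, with the median turned to 0.075. In shRNARUS 21 were lower and 12 higher, and the interaction was called lower for 18 and higher for 4. Of all 23789 genes, 3434 were then lower and 8573 higher in shRNACON, 3545 and 11801 in shRNARUS, and 2053 and 5700 for the interaction. Within a day all 58 were called lower with TPM as deposited too, when the median of all genes on day 5 was −0.21. Transcript length moved with these results. Across the 58 genes, which are not independent replicates, Spearman's rho of the longest transcript with the log2 change was −0.32 for the knockdown on day 5, 0.19 on day 7, 0.34 between the days in shRNACON, 0.47 in shRNARUS and 0.35 for the interaction, against −0.096, 0.105, 0.049, 0.151 and 0.196 over all genes with a length. With a smooth trend on length taken out of each library, all 58 were lower on each day, 22 were lower between the days in shRNACON and 50 in shRNARUS, and the interaction was called for 38. Of all genes, that setting called 5395, 6128 and 3169 lower in these comparisons, against 5133, 6135 and 3464 without it. *Mki67*, with 10061 bases one of the longest, then changed by −0.33 and −0.62 between the days and by −0.28 in the interaction. The part of length in these results was not tested otherwise.

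**Figure D4:**
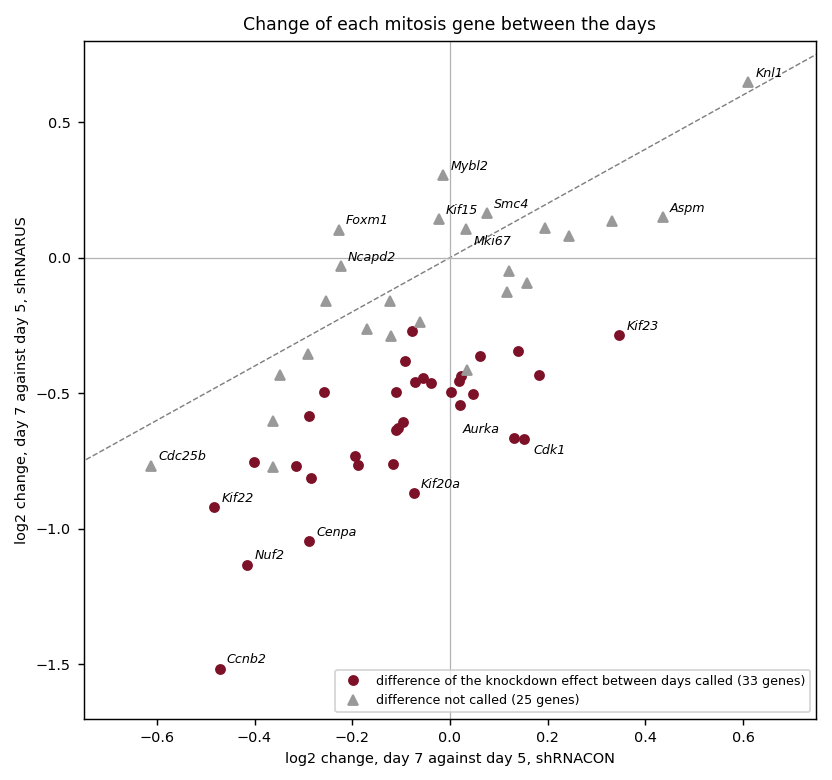
Log2 change of each mitosis gene from day 5 to day 7 in shRNACON (x axis) and in shRNARUS (y axis), where the dashed line marks equal change in both. Circles, the 33 genes with a called interaction, lie below the line, down to *Ccnb2* at −1.52 on the y axis, and triangles are the 25 genes not called. With TPM as deposited the median on the x axis turns from −0.076 to 0.075, and that of all genes moves from 0.067 to 0.20.

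Beyond the 58, most of a further list of 66 mitotic genes were lower too, and both that rose act at the kinetochore. On day 5, 56 of the 66 were lower and 2 higher, beside 17.9% and 14.8% of all genes, with a median of −0.77. On day 7, 61 were lower and 2 higher, beside 25.8% and 23.4%, with a median of −0.96. *Cep55*, which recruits the machinery of the last cut, was at 20.1, 19.0, 19.6 and 19.9 against 5.49, 6.75, 5.38 and 4.31 scaled TPM on day 7 (−1.83, SE 0.12, adjusted p = 1.76e-06), and *Depdc1a* changed by −1.60 (SE 0.14, adjusted p = 1.25e-05). The same pair rose on both days, *Zwint*, a kinetochore protein that binds the Knl1 scaffold, and *Cenpt*, which links the centromere to the Ndc80 complex. *Zwint* was at 270.1, 282, 279 and 270.1 in shRNACON and 424, 395, 415 and 379 in shRNARUS on day 5 (0.55, SE 0.051, adjusted p = 8.19e-05) and at 254, 247, 245 and 261 against 364, 334, 327 and 338 on day 7 (0.45, SE 0.037, adjusted p = 8.5e-06). The groups did not overlap on either day, and *Knl1*, its binding partner, was lower in the same comparisons. *Cenpt* changed by 0.24 (SE 0.053, adjusted p = 0.00814) and 0.16 (SE 0.042, adjusted p = 0.0117).

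The core of the APC/C, the machine that Cdc20 and Ube2c serve, had calls in both directions. Of its 14 genes, 1 was lower and 5 higher on day 5 (median 0.137), beside 17.9% and 14.8% of all genes, and 6 were lower and 2 higher on day 7 (median −0.090), beside 25.8% and 23.4%. *Anapc5*, a scaffold subunit, was higher on both days, 0.37 (SE 0.050, adjusted p = 0.000641) and 0.28 (SE 0.042, adjusted p = 0.000401). *Anapc13* was higher on day 5, 0.31 (SE 0.080, adjusted p = 0.0149), and lower on day 7, −0.48 (SE 0.057, adjusted p = 8.78e-05). On day 7 *Cdc16* changed by −0.44 (SE 0.041, adjusted p = 1.94e-05) and *Anapc2* by 0.22 (SE 0.042, adjusted p = 0.00172). The difference from the 58 genes was not tested. Cohesin, which holds sister chromatids together and also acts in cells that do not divide, had 5 of 9 genes lower and 0 higher on day 5, beside 17.9% and 14.8% of all genes, and 2 lower and 2 higher on day 7, with medians of −0.30 and 0.109, so that its day 7 counts were near the shares of all genes. *Smc1a*, an ATPase arm, was lower on both days, −1.02 (SE 0.060, adjusted p = 1.5e-05) and −0.74 (SE 0.068, adjusted p = 1.7e-05). On day 7 *Pds5a*, a regulator of the ring, changed by −0.17 (SE 0.046, adjusted p = 0.0116), *Rad21*, its kleisin, by 0.15 (SE 0.042, adjusted p = 0.014) and *Stag1* by 0.28 (SE 0.063, adjusted p = 0.00449). Of condensin II, the partner complex of condensin, 2 of 3 genes were lower on day 5 and 3 on day 7. *Ncapg2* changed by −0.81 (SE 0.13, adjusted p = 0.00126) and −0.59 (SE 0.063, adjusted p = 4.43e-05), and *Ncapd3* by −0.28 (SE 0.080, adjusted p = 0.0265) and −0.44 (SE 0.051, adjusted p = 7.75e-05).

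Of 18 genes of the DREAM, MuvB and E2F families, 10 were lower and 1 higher on day 5, beside 17.9% and 14.8% of all genes, and 8 lower and 4 higher on day 7, beside 25.8% and 23.4%. *E2f1*, an activator of S phase genes, was at 11.2, 10.9, 11.9 and 11.6 in shRNACON and 5.25, 4.80, 5.31 and 5.47 in shRNARUS on day 7 (−1.10, SE 0.062, adjusted p = 9.39e-07), and *E2f8*, a repressor of the same family, changed by −1.01 (SE 0.067, adjusted p = 2.3e-06). The pocket proteins *Rb1* and *Rbl2*, which hold E2F targets off in resting cells, rose on day 7. *Rbl2*, the p130 subunit of DREAM, was at 31.6, 28.3, 30.5 and 28.8 against 32.2, 31.9, 31.9 and 39.4 on day 5 (0.18, SE 0.079, adjusted p = 0.113) and at 33.3, 33.6, 32.4 and 34.5 against 56.3, 56.5, 53.4 and 56.1 on day 7 (0.74, SE 0.035, adjusted p = 3.33e-07). *Rb1* was not called on day 5, 0.16 (SE 0.087, adjusted p = 0.191), and rose by 0.64 (SE 0.050, adjusted p = 6.45e-06) on day 7. Of 33 DNA replication genes of S phase, 29 were lower on day 5, beside 17.9% of all genes, and 31 on day 7, beside 25.8%, and none was higher by limma on either day, with medians of −0.65 and −0.74. *Mcm3*, a subunit of the replicative helicase, changed by −1.16 (SE 0.095, adjusted p = 8.22e-06) and *Rrm2*, which makes deoxynucleotides, by −1.09 (SE 0.046, adjusted p = 2.41e-07) on day 7.

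Markers of microglia and of the oligodendrocyte lineage were mostly lower in shRNARUS on day 7, and those of other cells were not. All 8 microglia markers were lower in shRNARUS on day 7, beside 25.8% of all genes, and 3 were on day 5, beside 17.9%. Their summed level ran from 153 to 165 scaled TPM in shRNACON and from 132 to 150.4 in shRNARUS on day 5, and from 321 to 332 and from 133 to 167 on day 7. In the interaction 7 of these 8 were called lower, beside 14.6% of all genes, and 0 higher, with a median of −0.79. Of 8 markers of the oligodendrocyte lineage, 4 were lower on day 5, beside 17.9% of all genes, and 6 on day 7, with sums on day 5 from 247 to 329 in shRNACON and from 166 to 254 in shRNARUS and on day 7 from 375 to 412 in shRNACON and from 239 to 263 in shRNARUS. Both lineages divide, and their part in the decrease of the mitosis genes was not tested. The 7 astrocyte markers (1 lower and 3 higher on day 7), the 9 neuron markers (3 lower and 4 higher) and the 7 NSC markers (3 lower and 2 higher) had calls in both directions, with 25.8% of all genes called lower and 23.4% higher on that day. The summed astrocyte level was higher in shRNARUS on both days without overlap, from 6016 to 6381 against 4484 to 4687 in shRNACON on day 5 and from 3278 to 3422 against 2603 to 2681 on day 7. Of 10 fibroblast and vascular markers, 8 passed the filter, and 1 was lower and 4 higher on day 7.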

How the data were processed

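Poly(A) RNA of 16 libraries of transduced mouse NSCs was sequenced on a NextSeq by the authors, who aligned the reads with STAR to mm10 with an Ensembl GRCm38 annotation and estimated gene levels with RSEM. The versions of STAR and RSEM and whether counting used the strand are not given in the sources used here. The deposited values are TPM per gene and library, which correct for transcript length and total but hold no read number, so neither depth nor counting error is known. Columns of the authors' DESeq2 comparisons were not used.

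Of 55471 rows in each table, 106 were left out and 55365 used. TPM were divided by median-ratio factors (0.920 to 1.11 on day 5, 0.991 to 1.01 on day 7, 0.845 to 1.10 over all 16 libraries). The test took genes averaging 0.1 TPM or more and was made with limma 3.58.1 (trended eBayes, R 4.3.3) on log2(scaled TPM + 0.1), a scale that understates changes of low genes, with Benjamini-Hochberg adjustment over all genes. Each day was fitted with its 8 libraries, days and interaction with all 16, and the steps were first tested on simulated data. Printed levels use the 16-library factors. Gene positions are from GENCODE vM21 (GRCm38) and promoters from RefSeq (GRCm38.p6), and similar transcripts were searched with BLAST+ 2.17.0. Summaries used Python 3.11.15 with pandas 2.3.3.

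Groups came from the labels. The mitosis genes and the other gene lists were chosen with earlier results of these data known. In each role the genes named were those with the highest level and the largest and smallest day 7 change, plus the 3 largest and 3 smallest differences between days, and in each other list the 2 largest called decreases and increases on day 7. Alternatives were other pseudocounts (1 and 0.01), filters (1 TPM and none), scalings, no trend, a replicate block, the 16-library fit, each library left out and, added after seeing the data, a length trend removed. The labels do not say whether the replicate numbers pair the libraries, and the main fits used no block.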

Additional observations from a re-analysis of the deposited data

Results flagged for a closer look

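For 18 of the 30 named mitosis genes, some of which were named for the size of this difference, the effect of the knockdown differed between the days by the interaction term in limma, with the decrease larger on day 7. It was called for 33 of all 58, beside 14.6% of all genes. The difference on the log2 scale was −1.05 for *Ccnb2*, −0.82 for *Cdk1*, −0.80 for *Aurka*, −0.79 for *Kif20a*, −0.76 for *Cenpa* and −0.72 for *Nuf2*. It was −0.56 for *Kif2c*, −0.54 for *Ube2c*, −0.53 for *Spc24*, −0.52 for *Cdc20*, −0.51 for *Mad2l1* and −0.50 for *Tpx2*. It was −0.46 for *Top2a*, −0.44 for *Kif22*, −0.42 for *Prc1*, −0.39 for *Ncaph* and for *Kifc1*, and −0.29 for *Birc5*. With TPM as deposited the calls of *Birc5* (−0.12, adjusted p = 0.154), *Kifc1* (adjusted p = 0.0908), *Spc24* (adjusted p = 0.0618), *Prc1* (adjusted p = 0.0532) and *Ncaph* (adjusted p = 0.0506) were lost, and that of *Spc24* also with the length trend removed (adjusted p = 0.0698).

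In 10 of 124 groups of 4 libraries, 1 library lay far from the other 3 by Dixon's criterion (0.829), which chance gives in about 1 of 20 groups. Replicate 4 of shRNACON on day 7 stood apart for *Mki67* (45.6 scaled TPM), *Ube2c* (67.8), *Nusap1* (26.7) and *Kif20b* (13.5). The others were *Ccnb2* in shRNACON day 5 replicate 1 (38.8), *Incenp* in shRNACON day 5 replicate 4 (56.6), *Mad2l1* in shRNARUS day 5 replicate 1 (22.5), *Birc5* in shRNARUS day 5 replicate 4 (20.0), *Kifc1* in shRNARUS day 7 replicate 1 (14.1) and *Mki67* in shRNARUS day 7 replicate 4 (17.3).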

How the results depend on the processing

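All 58 genes were called lower on both days under each alternative run, except that with the replicate block *Spc24* was lost on day 5 (adjusted p = 0.064), leaving 57. The labels do not say whether libraries with the same replicate number belong together. Of 24 same-number pairs, 2 correlated over 0.1 (range −0.226 to 0.171, 15899 genes). Low correlation cannot show that they came from separate cultures. With the block, 14 genes were lower and 5 higher between days in shRNACON, 41 and 2 in shRNARUS, and the interaction was called lower for 32. Of all genes on day 5, the block called 2735 lower and 2231 higher, against 4034 and 3349 without it. Leaving out 1 library at a time gave 58 to 58 lower on either day, 13 to 18 lower and 3 to 5 higher in shRNACON, 39 to 43 and 1 to 5 in shRNARUS, and 29 to 36 and 0 to 2 for the interaction. Without the library labelled shRNARUS day 5 replicate 4, all-gene counts were 4593 lower and 3929 higher on day 5, and 3900 and 4392 for the interaction.

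The counts between days moved with the scaling, and the cause was not tested. With TPM as deposited, 7 were lower and 15 higher in shRNACON, 21 and 12 in shRNARUS, and 18 and 4 for the interaction. Of all genes, that setting called 6037 lower and 1768 higher on day 5, 3434 and 8573 between days in shRNACON, 3545 and 11801 in shRNARUS, and 2053 and 5700 for the interaction, against 4034 and 3349, 5133 and 6394, 6135 and 8317, and 3464 and 3626. 75th percentile scaling called 3143 of all genes lower and 4359 higher on day 5, and 6244 lower between days in shRNACON. Quantile normalization gave 8 higher in shRNACON and 1 in shRNARUS, 75th percentile scaling 28 lower in shRNACON and 1 higher in shRNARUS, and the removed length trend 0 higher in shRNARUS by limma.

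Directions between days turned in these cases, among all 58 genes and the named genes of the other lists, for values called in at least one of the fits compared. With TPM as deposited the median of the 58 became 0.075 in shRNACON, beside 0.20 for all genes, and *Zwint* became 0.022 and *Anapc2* 0.013 there. In shRNARUS *Ncapd2* then became 0.29, *Kif18b* 0.16, *Kif11* 0.27, *Ccna2* 0.087, *Kif23* 0.038, *Racgap1* 0.052, *Ttk* 0.052, *Cenpt* 0.30, *Zwint* 0.082, *Ncapd3* 0.11, *Anapc2* 0.24 and *Anapc5* 0.23. With quantile normalization *Zwint* became 0.089 in shRNACON, 0.26 in shRNARUS and 0.17 in the interaction, and in shRNARUS *Anapc2* became 0.17 and *Anapc5* 0.35. With 75th percentile scaling *Rad21* became −0.15 in shRNARUS. With the length trend removed *Mki67* became −0.33 and *Cenpf* −0.36 in shRNACON, *Mki67* −0.62 in shRNARUS and −0.28 in the interaction, and in shRNARUS *Aspm* became −0.56, *Smc2* −0.24, *Smc1a* −0.012 and *Pds5a* −0.0070. The number of reads is unknown, so the precision of low genes such as *Knl1* rests on the spread between libraries alone.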
